A study of Drosophila melanogaster with 4 samples.

Results

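Binding of RPD3, the fly counterpart of the histone deacetylases HDAC1 and HDAC2, was measured by chromatin immunoprecipitation followed by sequencing. It is described here over a pair of gene complexes with opposite effects on neural fate choice. The Enhancer of split complex was taken as the window on 3R from 21820000 to 21880000 and the achaete-scute complex as the window on X from 250000 to 360000, both on FlyBase release 5. The members are all enriched regions that overlap either window by at least 1 bp, and they number 42 of the 34059 regions in the 3 deposited lists. Of these, 7 of 7041 were in ChIP replicate 1, 10 of 7654 in ChIP replicate 2 and 25 of 19364 in a list deposited for the series as a whole, called the combined list below. All samples came from Oregon-R embryos of wild-type genotype, 14 to 16 h old and crosslinked whole, so every cell type of the embryo contributes. The antibody is named Q3451 in the labels and gave 2 ChIP libraries, beside 2 input libraries, of which 1 is named as the control of each replicate list.

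The Enhancer of split complex is the best known set of Notch target genes. On Notch activation, Su(H) turns on its basic helix-loop-helix genes, whose proteins are repressors that recruit the co-repressor Groucho through a short carboxy-terminal motif. Groucho, encoded by gro at the end of the same complex, binds RPD3, which removes acetyl groups from histones. The achaete-scute genes ac, sc and l(1)sc encode helix-loop-helix activators that make ectodermal cells competent to become neural precursors, and the Enhancer of split proteins repress them. The sister gene ase is used in the neural precursors themselves.

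By order in the RefSeq gene table of release 6, the Enhancer of split complex runs E(spl)mdelta-HLH, E(spl)mgamma-HLH, E(spl)mbeta-HLH, E(spl)malpha-BFM, Kaz-m1, E(spl)m2-BFM, E(spl)m3-HLH, E(spl)m4-BFM, E(spl)m5-HLH, E(spl)m6-BFM, E(spl)m7-HLH, E(spl)m8-HLH and gro. These are 13 protein-coding genes, 7 of them HLH repressors and 4 of them members of the Bearded family, small proteins that dampen Notch ligand activity. The achaete-scute complex runs ac, sc, l(1)sc, Pgcl and ase, which are 5 protein-coding genes. All 10 genes listed for the complexes were found in the table by symbol. Gene positions of release 5 were not used here, so a region is given by its place in the window and is not assigned to a gene.

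The lists hold no read numbers, so the depth of the libraries is unknown and no value has an error from read counting. The score of a region is the authors' and is read here as the log2 of ChIP over input. With 2 replicates the spread is an SD over n = 2, and it may be technical only, because separate collections of embryos are not stated. No p-value is given: a complex is set beside 1000 windows of equal length placed at random on the same chromosome. Those windows overlap one another and describe the chromosome.

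RPD3 regions were dense in the Enhancer of split complex. Replicate 1 had 7 regions that covered 27.6% of the 60 kb window, and replicate 2 had 9 regions that covered 35.4%. The mean cover was 31.5% ± 5.54 (SD, n = 2), against 14.9% ± 1.62 (SD, n = 2) over the whole of 3R, so both replicates lay above the arm, by 2.00 times in replicate 1 and 2.21 times in replicate 2. The random windows of 3R had a median cover of 11.3% in replicate 1 and 12.5% in replicate 2, with 95th percentiles of 36.7% and 41.5%. In replicate 1, 12.7% of these windows were covered as much or more, and in replicate 2, 8.60%. The cover of the complex was thus in the upper part of the range of 3R but below its 95th percentile in each replicate. In number of regions, the windows of 3R had a median of 3 in replicate 1 and 4 in replicate 2, and 16.0% and 7.90% of them held as many regions as the complex or more. The combined list covered 64.2% of the window with 16 regions, against a median of 35.6% and a 95th percentile of 63.6% over the same windows, and 4.90% of windows reached that cover.

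The stretches on either side of the Enhancer of split window were less covered. The adjacent 60 kb on the left had 6.32% cover in replicate 1 and 3.73% in replicate 2. The adjacent 60 kb on the right had 13.1% and 19.6%, most of which belongs to a region that crosses the window's edge. The complex was above both neighbours in each replicate, but the share of random windows for which this holds was not computed.

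**Figure D1:**
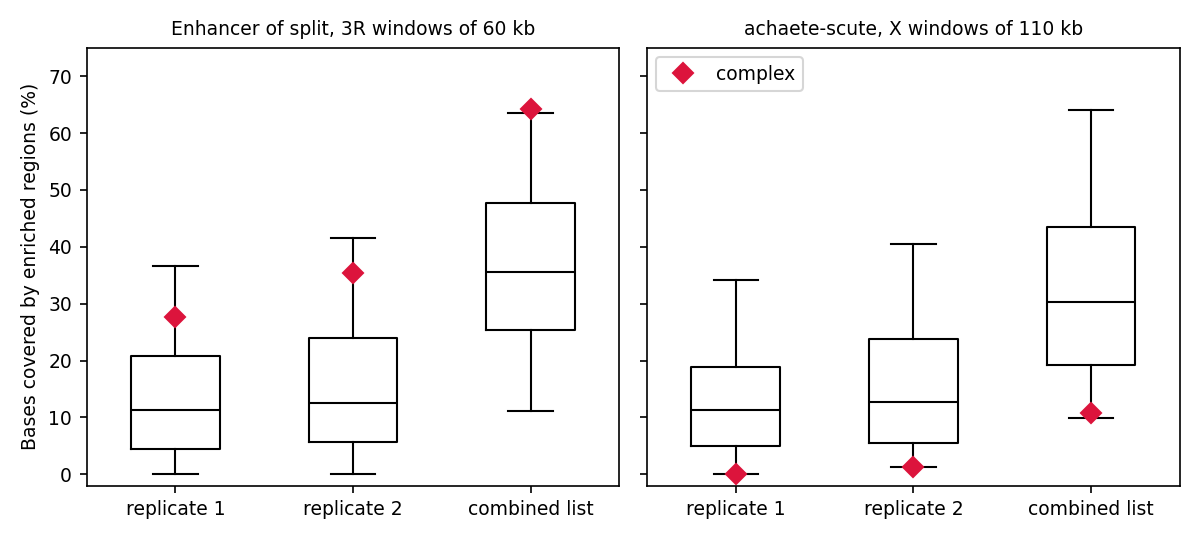
Bases covered by enriched regions (%) in 1000 random windows of the same chromosome (boxes: quartiles and median; whiskers: 5th to 95th percentile), with each complex as a diamond, for the 3 lists. The Enhancer of split diamonds lie in the upper part of the range at 27.6%, 35.4% and 64.2%, and the achaete-scute diamonds near the bottom at 0%, 1.26% and 10.7%.

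The same site scored highest in the Enhancer of split complex in both replicates, and also in the combined list. In replicate 1 it ran from 21864932 to 21869578, 4647 bp, with a score of 1.46. In replicate 2 it ran from 21865065 to 21869609, 4545 bp, with a score of 1.54. The starts of the site differed by 133 bp between replicates and the ends by 31 bp, and the overlap was 4514 bp. By score it ranked 8 of the 1684 regions of 3R in replicate 1 and 6 of the 1893 in replicate 2. The mean score of 1.50 ± 0.06 (SD, n = 2) is 2.83-fold on a linear scale, whereas the median region of 3R scored 0.78 in replicate 1 and 0.77 in replicate 2. A region scoring as high was present in 1.90% of random windows in replicate 1 and in 1.10% in replicate 2. The combined list had the same site from 21864872 to 21869634, with a score of 1.41 that ranked 8 of 4733 on 3R.

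The right end of the window held the widest block. Replicate 1 had a region from 21876761 to 21879865, scoring 1.12, and, 70 bp further on, one from 21879936 to 21886568, scoring 1.02. Replicate 2 had the same pair, from 21875679 to 21879867, scoring 0.74, and from 21879916 to 21886379, scoring 0.92. The second region of the pair was the widest of the members in each replicate, at 6633 bp and 6464 bp, but only 65 bp of it in replicate 1 and 85 bp in replicate 2 lay inside the window. The combined list joined the pair into 1 region from 21875521 to 21887403, 11883 bp wide, with a score of 0.90. The score of the first region of the pair varied more between the replicates, at a mean of 0.93 ± 0.27 (SD, n = 2), than that of the second, at 0.97 ± 0.07 (SD, n = 2).

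A further shared block lay in the left part of the window. In replicate 1 it was a region from 21830343 to 21833306, scoring 0.89, followed by one from 21833406 to 21834769, scoring 0.57. In replicate 2 it was a region from 21829889 to 21833477, scoring 0.90, followed by one from 21833529 to 21834853, scoring 0.39. The first of these scored almost alike in the replicates, with a mean of 0.89 ± 0.01 (SD, n = 2), and lay at the 72.0 and 74.1 percent rank of 3R. The last shared site was weaker, from 21845768 to 21848600, scoring 0.69 in replicate 1 and from 21845682 to 21847261, scoring 0.46 in replicate 2. It lay below the median score of 3R in each replicate, so cover in the complex came from weak regions as well as strong ones. The median score of the members was 0.89 in replicate 1 and 0.63 in replicate 2, on either side of the medians of 3R.

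Both replicates left the left edge of the window empty. The stretch of 9889 bp from 21820000 to 21829888 had no region in either list, and the nearest region outside it ended 9748 bp to the left of the window in replicate 1 and 9720 bp in replicate 2. Within the window, other stretches that neither replicate covered ran from 21834854 to 21842257 (7404 bp), from 21850882 to 21857658 (6777 bp) and from 21859239 to 21864931 (5693 bp). In bins of 10 kb, cover in replicate 1 was lowest in the first bin, at 0%, and highest in the bin from 40 to 50 kb, at 46.5%. In replicate 2 it was 1.11% in the first bin and highest in the last, from 50 to 60 kb, at 58.0%. The replicates differed most in the last bin, where replicate 1 had 31.7%.

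**Figure D2:**
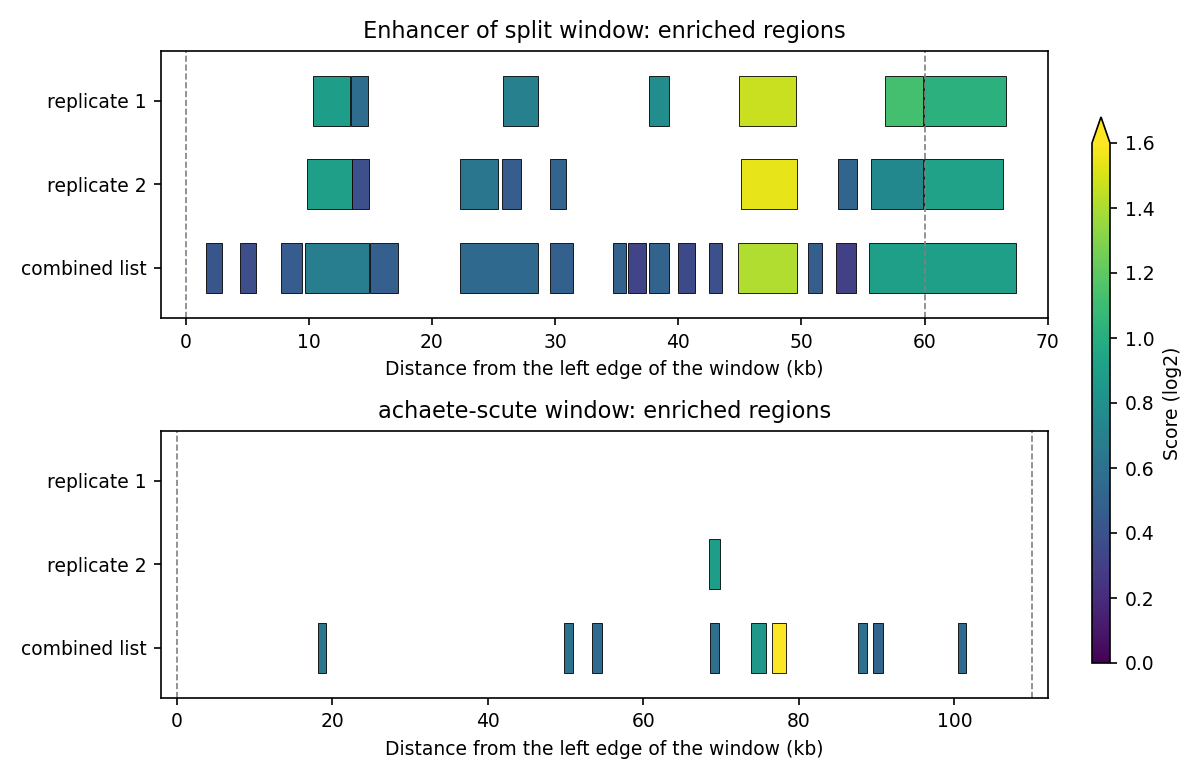
Enriched regions of both windows in the 3 lists, by distance from the left edge of the window (kb); boxes are regions, their colour is the score (log2, scale capped at 1.6), and dashed lines are the window's edges. The strongest Enhancer of split site, at about 45 kb, is present in all 3 lists, while the achaete-scute window is empty in replicate 1 and has 1 region in replicate 2.

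Replicate support in the Enhancer of split complex was close to that of the arm. Of the 7 regions of replicate 1, 6 overlapped a region of replicate 2, and 74.6% of all replicate 1 regions of 3R did so. Of the 9 regions of replicate 2, 6 overlapped a region of replicate 1, against 64.5% over 3R. These shares, 85.7% and 66.7%, rest on few regions and are not read as different from the arm. By bases, 13.5 kb of the window were covered in both replicates, or 22.4% of it, against 10.2% of 3R. The bases covered in both made up 55.2% of those covered in either, and 51.8% over 3R. The member of replicate 1 without a partner ran from 21857659 to 21859238, scoring 0.79. The 3 members of replicate 2 without a partner were from 21842258 to 21845352, scoring 0.63, from 21849561 to 21850881, scoring 0.51 and from 21872981 to 21874510, scoring 0.51. All 3 scored below the median of 3R in replicate 2.

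The combined list split the Enhancer of split complex in much the same way as the rest of the arm. Of its 16 regions, 4 were overlapped by both replicates, against a background of 23.3% over 3R, and 9 by neither, against 55.6%. Of the rest, 1 was overlapped by replicate 1 only (background 8.01%) and 2 by replicate 2 only (background 13.1%). The 4 regions found in both replicates were from 21829686 to 21834908, scoring 0.67, from 21842235 to 21848617, scoring 0.54, and the strong site and the wide block given above. The 9 found in neither had a median score of 0.43, against 0.49 for such regions over 3R.

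The achaete-scute complex was nearly free of RPD3 regions in the replicate lists, whereas the combined list had 9 there. Replicate 1 had 0 regions in the 110 kb window. Replicate 2 had 1, from 318448 to 319835, 1388 bp wide, with a score of 0.88. That region could have no partner, because replicate 1 was empty there. Over the whole X, 65.8% of replicate 2 regions and 78.3% of replicate 1 regions had a partner in the other replicate. With 0 regions in replicate 1, the window cannot be compared with these shares. The mean cover was 0.631% ± 0.892 (SD, n = 2), against 14.3% ± 1.89 (SD, n = 2) over the X. In replicate 1, 5.50% of random X windows of 110 kb were likewise empty. In replicate 2, 4.20% were covered as little or less, and 9.40% held 1 region or none. The median cover of these windows was 11.4% in replicate 1 and 12.6% in replicate 2, so the complex lay near the lower end of the range in each list, a range that reached 0% in both.

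The gap went beyond the achaete-scute window. In replicate 1 the X was free of regions from 174519 to 369409, 194.9 kb, the stretch of rank 5 by length among the 1198 between regions of the X. Replicate 2 had a stretch of 144.0 kb without a region from 174407 to 318447, of rank 8 among 1368, and one of 49.8 kb from 319836 to 369589 beyond its single region. The median stretch on the X was 5.12 kb in replicate 1 and 4.53 kb in replicate 2. The first regions on the right of the window began at 369410 in replicate 1, with a score of 0.86, and at 369590 in replicate 2, with a score of 0.60. Past that point cover was higher: the adjacent 110 kb on the right had 8 regions and 17.1% cover in replicate 1, and 11 regions and 24.8% in replicate 2. The adjacent 110 kb on the left had 2 regions in each replicate and 2.96% and 2.86% cover. The low cover was therefore shared by the complex and the sequence on its left, towards the end of the chromosome.

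**Figure D3:**
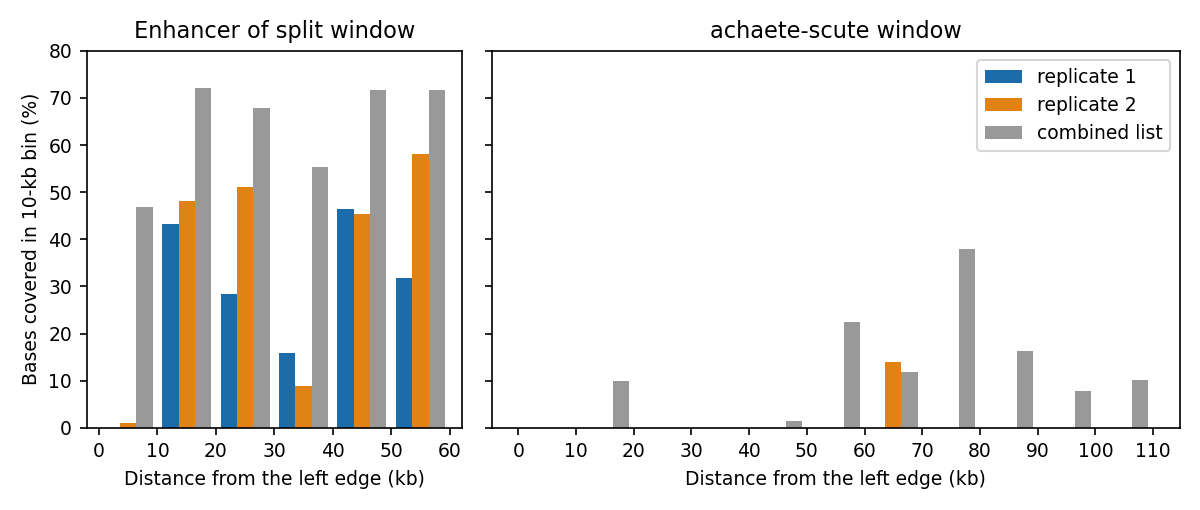
Bases covered (%) in bins of 10 kb along each window, by distance from its left edge, for replicate 1, replicate 2 and the combined list; bars start at 0 and carry no error. In the Enhancer of split window the replicates reach 46.5% and 58.0%, and in the achaete-scute window the only replicate bar is replicate 2 in the bin from 60 to 70 kb, at 13.9%.

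In the combined list the achaete-scute window had 9 regions that covered 10.7% of it, against 32.2% of the X. The adjacent 110 kb on the left had 7 regions and 12.1% cover, and that on the right 22 regions and 53.2%. By cover, 5.90% of random X windows had as little or less, and by number, 14.2% had as few regions or fewer. Of the 9, 1 was overlapped by replicate 2 only (background 13.7% of combined-list regions on X) and 8 by neither (background 53.6%). Since replicate 1 had no region in the window, 0 were overlapped by both (background 25.4%) and 0 by replicate 1 only (background 7.35%) by construction. Replicate 2 had only 1 region there, so nearly all of the 9 had to be in neither. Nothing further is read from any of these shares. The median score of the 9 regions was 0.59 and their median width 1186 bp, against 0.62 and 1628 bp on the X. The bins from 20 to 40 kb of the window held none of them.

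The highest score of the combined list on the X lay in the achaete-scute window all the same. The region from 326511 to 328320, 1810 bp wide, scored 3.20, or 9.17-fold, and ranked 1 of the 3074 combined-list regions on the X and 12 of 19364 in the list. The next highest on the X scored 2.87. No region of either replicate overlapped it, and the highest score of any X region was 2.67 in replicate 1 and 2.69 in replicate 2. Of the 10 highest-scoring combined-list regions of the X, 10 were in neither replicate (background 53.6%). On 3R, 6 of the 10 highest were in neither replicate (background 55.6%) and 4 were in both (background 23.3%). The strong Enhancer of split site was among these 4. The exact score of the achaete-scute region was shared by 4 other regions of the combined list, none of the 5 being in a replicate list. The nearest different scores were higher by 0.07 and lower by 0.07, which equal the log2 of 21 over 20 and of 20 over 19. The part of low read numbers in this score was not tested. Beside it, from 323802 to 325789, the combined list had a region with a score of 0.85, which was in neither replicate either.

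Set side by side, the complexes differed in the same direction in both replicates. They did so in the combined list too, which belongs to the same series and is not a further replicate. Cover in the Enhancer of split window exceeded that in the achaete-scute window by 27.6 percentage points in replicate 1, by 34.2 in replicate 2 and by 53.5 in the combined list. The share of ordinary window pairs that differ by as much was not computed. Cover varied as widely among ordinary windows, however, with 5th to 95th percentiles in replicate 1 from 0% to 36.7% on 3R and from 0% to 34.1% on the X, and in replicate 2 from 0% to 41.5% and from 1.30% to 40.5%. Whole-chromosome cover was alike, at 13.8% on 3R and 12.9% on X in replicate 1 and at 16.1% and 15.6% in replicate 2. The windows differ in length and chromosome, and the complexes were named with earlier results of these data known, so the difference is a description.

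**Figure D4:**
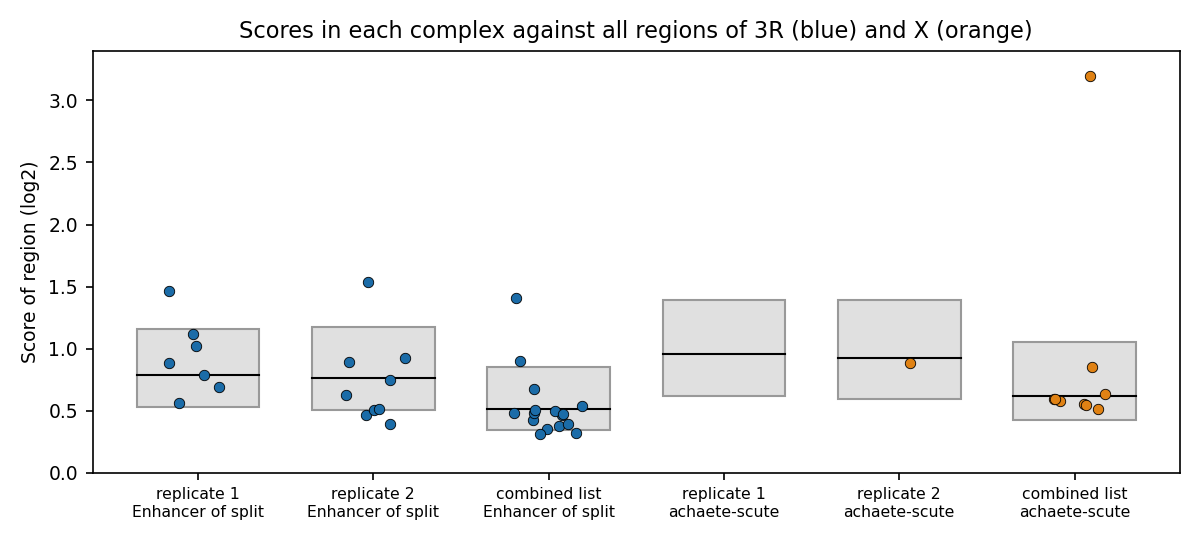
Scores (log2) of the members in each list (points, spread sideways for legibility) over the 5th to 95th percentile (grey) and median (line) of all regions of 3R or X in that list. In both replicates the strongest Enhancer of split region lies above the grey range, at 1.46 and 1.54, and in the combined list of the X one achaete-scute region lies at 3.20.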

How the data were processed

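The samples were 2 RPD3 ChIP and 2 input libraries, grouped by title. No values of the inputs were analysed here. Reads were aligned with Bowtie 0.12.7, per the submitters' processing notes, and positions follow FlyBase release 5, per the file headers. Not given in the sources used here are the caller, its thresholds and the making of the combined list, so the number and length of regions can change with depth alone. The deposited score was taken as log2, since 2 to the power of the score gave, per list, 1 constant times a ratio of whole numbers (denominators up to 1000) for 100% of replicate scores and 99.9% of combined-list scores. Depleted rows were left out.

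Cover, counts and partners (at least 1 bp) were computed per window, beside 1000 random windows (seed 1). The functions were tested on simulated lists. Members, windows and lists were chosen with earlier results of these data known. The rule for regions named was to account for every replicate region and to give in full the strongest, the widest and those of the combined list in both replicates; other combined-list regions named were chosen after their values were seen. Sequences, gene positions and motifs of release 5 were not used here, and planned sequence features were not computed. No columns of other samples were met (0 columns). Python 3.11.15, numpy 2.4.6, pandas 2.3.3 and matplotlib 3.10.9 were used.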

Additional observations from a re-analysis of the deposited data

How the results depend on the processing

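Of 63 alternative values, at least 18 could not move by construction. These were 10 that leave out 1 of 2 replicates from a mean, and 8 counts of shared regions in the achaete-scute window, where replicate 1 had none. Of the other 45, 36 stayed within the SD between replicates or, for counts, within 1.5 times. Some of these 36 had little room to move. The mean achaete-scute cover of 0.631% rested on 1 region and had an SD of 0.892. Selecting by midpoint or score, or merging, could not move it by that SD. Merging regions within 200 bp moved the Enhancer of split cover only from 31.5% to 31.7%, against an SD of 5.54. The 36 is therefore not a measure of stability. Keeping scores at or above the list median lowered the Enhancer of split cover to 15.8% and its mean number of regions to 3.50. That filter removes regions everywhere, so cover and counts could only fall or stay, and the cover of 3R under it was not computed. With the random windows filtered alike, the share covered as much or more rose from 10.7% to 19.8%. The share of X windows covered as little or less than the achaete-scute complex rose from 4.85% to 8.75%. That share was 8.25% with the window narrowed by 10 kb and 6.40% with 203 tiled windows as background. Widening the achaete-scute window by 10 kb raised its mean number of regions from 0.5 to 1.50, as the first regions on its right entered.

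Leaving out each replicate gave an Enhancer of split cover of 27.6% to 35.4%, 7 to 9 regions, a share of windows of 12.7% and 8.60%, and a median score of 0.63 to 0.89. For the achaete-scute complex it gave 0% to 1.26% cover, 0 to 1 regions and a share of windows of 4.20% to 5.50%. The 1 region rests on replicate 2: without it the complex had 0. No paired analysis was possible because the inputs that share replicate numbers with the ChIP libraries have no values here and no test was run. Unknown depth limits every absence of a region to one not listed.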
